A study of Homo sapiens with 16 samples.

Results

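The insulin-like growth factor 1 (IGF1) axis was examined as 10 genes, namely IGF1, the receptors IGF1R, INSR and IGF2R, the adaptors IRS1 and IRS2, and the binding proteins IGFBP2, IGFBP4, IGFBP6 and IGFBP7. The members were the array probes whose RefSeq accession belongs to one of these symbols, which gave 12 probes of 50599 gene probes and 10 of 20503 matched gene symbols. IGF1 binds the receptor tyrosine kinase IGF1R, and the insulin receptor INSR is its close relative that binds insulin with high affinity. The activated receptors phosphorylate the docking proteins IRS1 and IRS2, from which the PI3K-AKT-mTOR and RAS-MAPK arms start, whereas IGF2R takes up IGF2 for degradation and the binding proteins hold the ligands outside the cell. IGF1 is known as a growth and survival factor of multiple myeloma cells.

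RNA was profiled on single-colour Agilent arrays in LP-1, a human multiple myeloma cell line with a TRAF3 deletion. LP-1-cIAP2-eGFP cells had been transduced with a lentivirus for cIAP2 and eGFP and control (LP-1-eGFP) cells with one for eGFP only, and eGFP-positive cells were sorted. Each line was untreated or treated with 10 nM of the proteasome inhibitor bortezomib for 6 h or 24 h, which made 8 conditions of 2 biological replicates. The labels name 1 transduced line of each kind, so the difference between the lines has no replicate transductions behind it, and 16 arrays limit the precision. Signals are given as quantile normalized log2 values. They compare the same probe between arrays, not one gene with another. Differences are log2 differences with their standard error (SE), and p-values come from limma with Benjamini-Hochberg adjustment over all probes tested. A probe was called at an adjusted p under 0.05. Where the arrays of 2 groups are said not to overlap, the share of all probes that do the same was not counted.

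Replicate 1 of the LP-1-cIAP2-eGFP cells treated with bortezomib for 24 h was a dim array. Its log2 median signal was 3.18, against 5.73 to 6.64 on the other 15 arrays, and 35.5% of its gene spots were well above background, against 49.0% to 71.1%. Over probes, its difference from replicate 2 had an SD of 1.48, against 0.495 to 0.773 in the other 7 conditions. Calls of the 10 genes are given with and without it, and of the other genes named those that were lost without it are marked. Slide 1 held 6 LP-1-cIAP2-eGFP and 2 control arrays, and slide 2 held 2 and 6, so line and slide were partly confounded. With bortezomib at 6 h both LP-1-cIAP2-eGFP arrays lay on slide 1 and both control arrays on slide 2. In that condition line and slide cannot be told apart. Both arrays of the condition with the dim array lay on slide 1.

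All 9 plasma cell markers tested had a probe above background, SDC1 (syndecan-1, CD138), CD38 and MZB1 on all 16 arrays. MS4A1, PAX5, CD79B and CD22 (B cells), COL1A2, COL3A1, LUM, PDGFRB and THY1 (stromal cells) and LYZ, CSF1R and FCGR3A (monocytes) were not tested. The probe for BIRC3, the gene of cIAP2, lies in the 3′ untranslated region that the transgene lacks according to the methods, so it cannot check the overexpression. It read 12.01 ± 0.11 in untreated LP-1-cIAP2-eGFP cells and 13.58 ± 0.06 in untreated controls (SD, n = 4 each), a difference of -1.57 (adjusted p = 2.24e-05, limma).

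**Figure D1:**
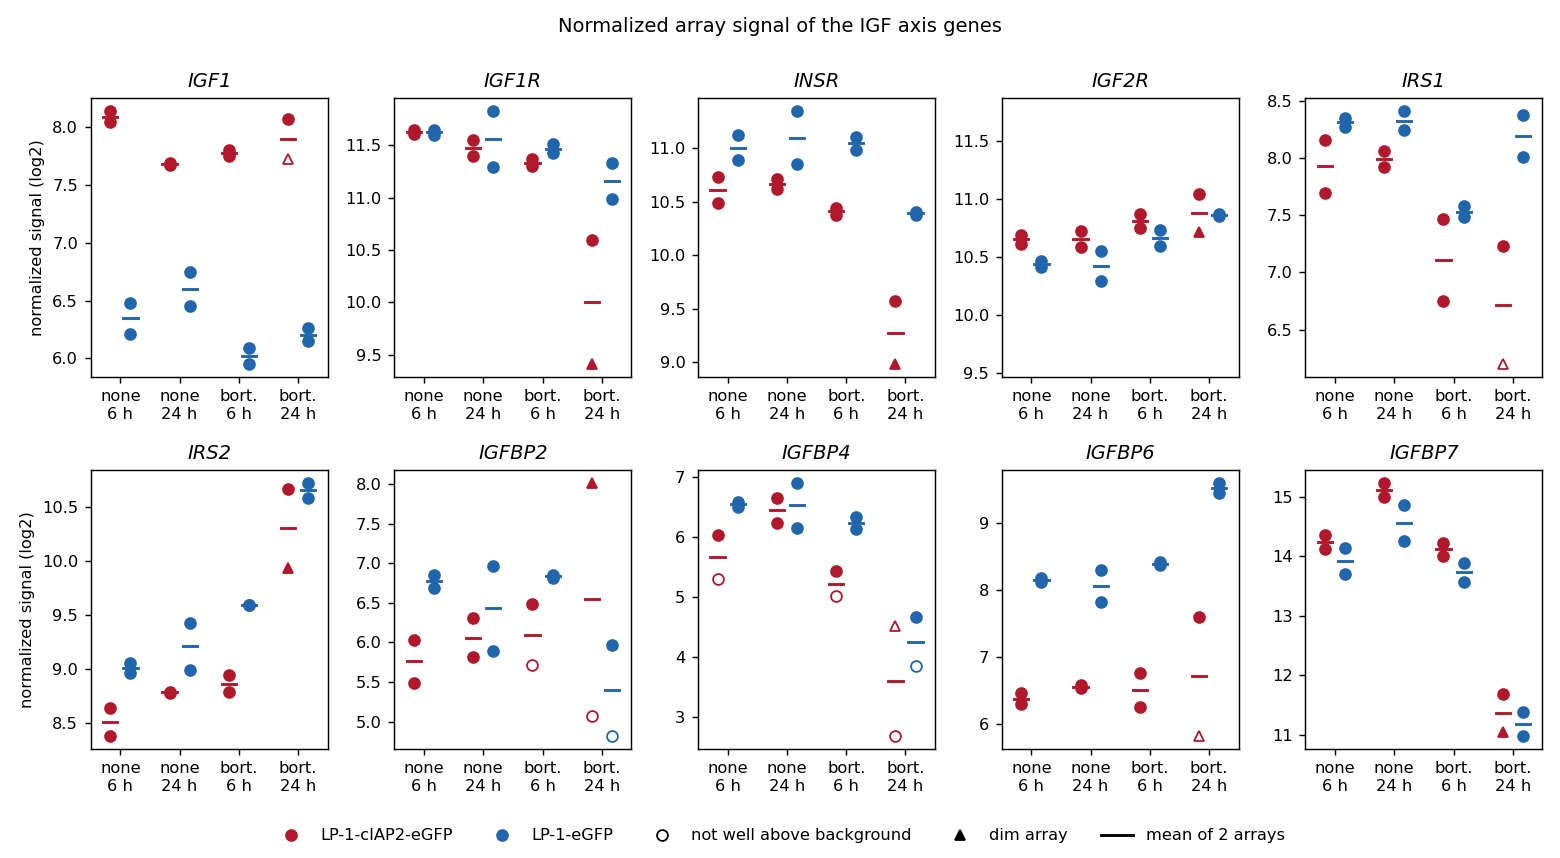
Normalized signal (log2) of the 10 genes on each array, by treatment and time (none, untreated; bort., bortezomib), with LP-1-cIAP2-eGFP in red and the control in blue. Lines are means of 2 arrays, open symbols are arrays on which the probe was not well above background, and triangles mark the dim array. In IGF1 the red symbols, 7.67 to 8.14, all lie above the blue ones, 5.95 to 6.75, and in IGFBP6 they all lie below them.

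IGF1 was the member that was higher in LP-1-cIAP2-eGFP cells. Its gene lies on the minus strand at chr12:102395874-102481839 (GRCh38.p14). In untreated LP-1-cIAP2-eGFP cells the log2 signal was 8.14 and 8.04 at 6 h, and 7.69 and 7.67 at 24 h. In untreated control cells it was 6.21 and 6.48 at 6 h, and 6.75 and 6.45 at 24 h. All 4 untreated LP-1-cIAP2-eGFP arrays were above all 4 control arrays. With bortezomib the LP-1-cIAP2-eGFP arrays read 7.80 and 7.75 at 6 h and 7.72 and 8.07 at 24 h, and the control arrays 6.09 and 5.95 at 6 h and 6.26 and 6.15 at 24 h. The 8 arrays of one line therefore did not overlap with the 8 of the other. Averaged over treatment and time the difference was 1.57 (SE 0.0851, 95% confidence interval 1.38 to 1.76), or 2.97-fold, with an adjusted p of 2.29e-06 (limma).

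The difference in IGF1 passed the test in each of the 4 conditions, although with bortezomib at 6 h line and slide cannot be told apart. It was 1.75 and 1.08 in untreated cells of the 6 h and 24 h time points and 1.76 and 1.70 in treated cells, with adjusted p-values of 6.08e-04, 0.00886, 5.30e-04 and 5.93e-04 (limma). Without the dim array the averaged difference was 1.65 (adjusted p = 1.93e-06, limma), and 1.51 when slide was fitted as a block (adjusted p = 7.31e-05). Within slide 1 it was 1.65 (adjusted p = 0.281) and within slide 2 it was 1.40 (adjusted p = 0.0533), where 3 and 1281 of all probes were called. The second IGF1 probe did not pass the filter on signal and was well above background on 2 of 16 arrays.

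The receptors were measured on all 16 arrays. INSR was lower in LP-1-cIAP2-eGFP cells. Its LP-1-cIAP2-eGFP arrays ranged from 8.98 to 10.73 with a median of 10.46, and the control arrays from 10.38 to 11.35 with a median of 10.94. The 2 LP-1-cIAP2-eGFP arrays lay below the 2 control arrays in each of the 4 conditions. The averaged difference was -0.65 (SE 0.112, adjusted p = 0.00329, limma), and -0.58 without the dim array (adjusted p = 0.00218). IGF1R differed by -0.34 (adjusted p = 0.220) and the scavenging receptor IGF2R by 0.15 (adjusted p = 0.235), and neither passed the test. In untreated cells IGF1R read 11.55 ± 0.11 in LP-1-cIAP2-eGFP and 11.59 ± 0.22 in control cells (SD, n = 4), and the 95% confidence interval of the difference was -0.56 to 0.49.

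Averaged over treatment and time, both adaptors were lower in LP-1-cIAP2-eGFP cells, by less than 1 on the log2 scale. IRS2 ranged from 8.38 to 10.67 (median 8.79) in LP-1-cIAP2-eGFP and from 8.96 to 10.73 (median 9.51) in control cells, and differed by -0.50 (SE 0.118, adjusted p = 0.0166, limma). IRS1 ranged from 6.20 to 8.16 (median 7.58) and from 7.48 to 8.41 (median 8.25), and differed by -0.65 (SE 0.170, adjusted p = 0.0275). The ranges overlapped in both genes. Within each condition the LP-1-cIAP2-eGFP arrays of IRS1 lay below the control arrays. With bortezomib at 6 h the nearest of them read 7.47 and 7.48. The IRS1 call was the less firm of these, since it was kept in 6 of 16 refits without one array (adjusted p = 0.00189 to 0.0707), and a second IRS1 probe gave -0.37 (adjusted p = 0.641). With the slide as a block neither adaptor passed the test (adjusted p = 0.0867 for IRS2 and 0.129 for IRS1). Within slides 1 and 2 the differences were -0.54 and -0.38 for IRS2, -1.22 and -0.20 for IRS1, and -0.81 and -0.44 for INSR, none of them called.

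Among the binding proteins, IGFBP6, which binds IGF2 in preference to IGF1, was lower in LP-1-cIAP2-eGFP cells. Its gene lies on the plus strand at chr12:53097667-53102340 (GRCh38.p14). Untreated LP-1-cIAP2-eGFP cells read 6.30 and 6.47 at 6 h and 6.54 and 6.59 at 24 h. Untreated control cells read 8.12 and 8.18 at 6 h and 7.82 and 8.31 at 24 h. The lines were apart by more than the spread of their replicates, and no LP-1-cIAP2-eGFP array reached a control array in any condition. With bortezomib LP-1-cIAP2-eGFP cells read 6.26 and 6.77 at 6 h and 5.83 and 7.61 at 24 h, and control cells 8.42 and 8.38 at 6 h and 9.46 and 9.61 at 24 h. The averaged difference was -1.99 (SE 0.227, 95% confidence interval -2.50 to -1.48, adjusted p = 2.67e-04, limma), a 3.97-fold lower signal. It was -1.79 without the dim array (adjusted p = 9.59e-06), -1.95 with the slide as a block (adjusted p = 0.00406), -2.37 within slide 1 (adjusted p = 0.616) and -1.55 within slide 2 (adjusted p = 0.0273).

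The other 3 binding proteins did not pass the test between the lines. The difference was -0.24 for IGFBP2 (adjusted p = 0.748), -0.66 for IGFBP4 (adjusted p = 0.148) and 0.36 for IGFBP7 (adjusted p = 0.137, limma), a secreted protein with low affinity for IGFs. Without the dim array IGFBP4 was -0.91 (adjusted p = 0.0110) and IGFBP7 0.44 (adjusted p = 0.0476). IGFBP4 was well above background on 4 of 8 LP-1-cIAP2-eGFP arrays, so the size of its difference rests in part on signals at background. IGFBP2 was well above background on 13 of 16 arrays, and on the dim array it read 8.02 where the replicate read 5.07.

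In all, 5 of 10 members were called between the lines averaged over treatment and time, 1 higher and 4 lower, where 16.1% of all probes tested were called, 6.25% higher and 9.84% lower. The median difference of the members was -0.42, against -0.02 over all probes. Leaving out the dim array gave 7 of 10, 2 higher and 5 lower (23.2% of all probes), with IGFBP4 and IGFBP7 added. With normexp background correction the 5 were 3 higher and 2 lower (14.6% of all probes). IGF2R (0.29) and IGFBP7 (0.42) were gained, IRS1 (-0.44) and IRS2 (-0.54) were lost, and IGF1 was 1.04. In single conditions 1 of 10 was called in untreated cells at 6 h (3.09% of all probes), at 24 h (2.77%) and with bortezomib at 6 h (3.31%), which was IGF1 in each. Line calls with bortezomib at 6 h cannot be told from a difference between the slides. With bortezomib at 24 h 4 of 10 were called (5.92% of all probes), IGF1 higher and INSR, IRS1 and IGFBP6 lower. The dim array left out, 2 of 10 were called there (5.39% of all probes), IGF1 with 1.91 and IGFBP6 with -1.94 in place of -2.81, while INSR was -0.83 (adjusted p = 0.0626) and IRS1 -0.97 (adjusted p = 0.123). In the other 3 conditions that refit called IGFBP6 beside IGF1, with -1.80 in untreated cells at 6 h (7.51% of all probes), -1.53 at 24 h (6.48%) and -1.91 with bortezomib at 6 h (7.61%), where IRS2 (-0.73) was called too. Over both times the untreated lines differed in 2 of 10, IGF1 and IGFBP6 (7.75% of all probes), to which the refit added IRS2 with -0.47 (14.8%). IGF1 and IGFBP6 were also the 2 members that passed the first of the 2 sets of thresholds that the methods give, applied here to the limma fit. These were a difference over 2-fold in untreated cells together with a line effect at an adjusted p under 0.001, which 2.37% of all probes passed.

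**Figure D2:**
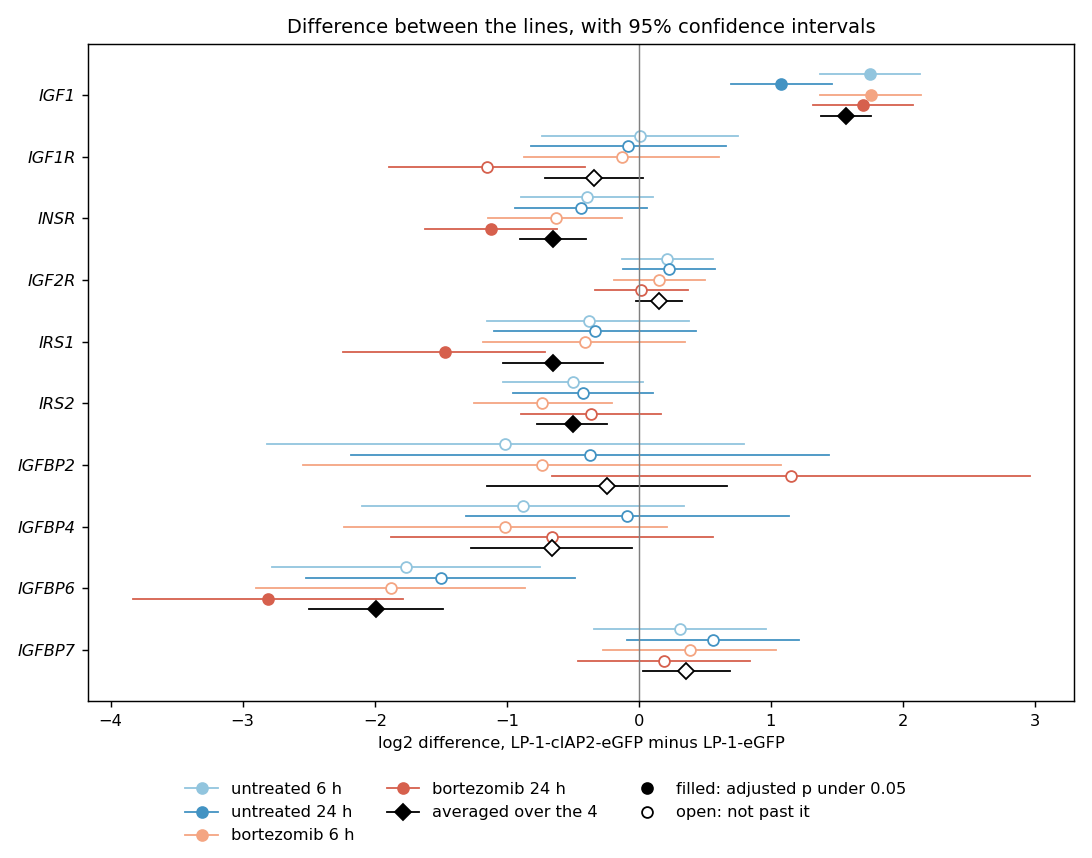
Log2 difference of each gene between LP-1-cIAP2-eGFP and control cells (x axis) in the 4 conditions and averaged over them, with 95% confidence intervals from limma. Filled symbols passed an adjusted p of 0.05. IGF1 lies to the right of 0 in all 4 conditions, 1.08 to 1.76, and IGFBP6 to the left in all 4, -1.50 to -2.81.

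The stretches before the start sites of IGF1 and IGFBP6, the members furthest apart between the lines, are shown from RefSeq (GRCh38.p14), 5′ to 3′ on the gene's strand. A window of 250 bases before each listed start was searched on both strands for 8 motifs, the GC box GGGCGG, the box CCAAT, the TATA box TATAAA, the AP-1 motif TGANTCA, the FOXO motif GTAAACA, the heat shock pair GAANNTTC, the motif TGATGNAA of CEBP-ATF dimers and the NF-kB consensus. Matches are in capitals, and a match on the other strand reads as its reverse complement. For IGF1, with 2 listed starts, the 158 bases of the upstream window that precede the annotated gene are printed (chr12:102481840-102481997, minus strand), and for IGFBP6 all 250 (chr12:53097417-53097666, plus strand).
IGF1: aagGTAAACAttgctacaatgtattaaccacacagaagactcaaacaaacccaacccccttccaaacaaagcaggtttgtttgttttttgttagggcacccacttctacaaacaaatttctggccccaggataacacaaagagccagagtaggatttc
IGFBP6: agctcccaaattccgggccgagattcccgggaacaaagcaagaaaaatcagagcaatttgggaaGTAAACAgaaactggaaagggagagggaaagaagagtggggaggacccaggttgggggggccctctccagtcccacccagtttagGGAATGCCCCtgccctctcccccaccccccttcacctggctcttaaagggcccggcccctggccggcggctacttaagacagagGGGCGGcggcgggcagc
Both windows held the FOXO motif, which 2.98% of 34788 promoter windows held, from base -247 to -241 in IGF1 and from -186 to -180 in IGFBP6. IGFBP6 also held an NF-kB consensus from -101 to -92 (5.21% of windows) and a GC box from -17 to -12 (42.6% of windows). The downstream IGF1 window held none of the 8. A match is a run of letters and not a measured site.

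To describe which genes followed IGF1, Pearson correlation was computed over the 16 arrays for 15486 genes. The highest values were those of RFC5 (0.984), EMC10 (0.976), PLAAT3 (0.961), RBM47 (0.954) and S100A11 (0.951). The lowest were those of ASS1 and BABAM2 (both -0.969), DPP10 (-0.967), PHGDH (-0.962) and FAS (-0.96). RFC5 is a subunit of replication factor C, PHGDH starts serine synthesis and FAS is a death receptor. The arrays share line, treatment and slide and form 2 groups by line in IGF1, so these values describe the difference between the lines. EMC10 was well above background on 10 arrays, and ASS1 and DPP10 on 8.

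Bortezomib at 24 h changed the level of 7 of 10 members averaged over both lines, 2 higher and 5 lower, where 34.9% of all probes were called, 15.1% higher and 19.7% lower. Fitted changes were more than 2-fold in 4 of the 7, IGFBP7, IGFBP4, INSR and IRS2, as in 17.2% of all probes, but the IGFBP4 value includes signals not well above background. Among members above background in treated cells IGFBP7 fell most, and IRS2 rose most. The median change of the members was -0.49, against -0.09 over all probes. RNA was measured in bulk, so that fewer cells of one kind and less RNA per cell cannot be told apart.

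IGF1 itself was not called at 24 h. The change was -0.09 (SE 0.120, adjusted p = 0.603, limma), with a 95% confidence interval of -0.36 to 0.18. This average joins opposite values. In LP-1-cIAP2-eGFP cells the treated arrays read 7.72 and 8.07 and the untreated ones 7.69 and 7.67, with a change of 0.22 (adjusted p = 0.364, and 0.134 without the dim array). The 7.72 came from the dim array, where IGF1 was not well above background. In control cells both treated arrays lay below both untreated ones, with a change of -0.40 (adjusted p = 0.139, and 0.0535 without the dim array). Neither was called.

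INSR fell in both lines. At 24 h untreated LP-1-cIAP2-eGFP cells read 10.71 and 10.62 and treated cells 8.98 and 9.57. Untreated control cells read 11.35 and 10.85 and treated cells 10.40 and 10.38. Treated arrays were below untreated arrays in both lines, and the change over both was -1.05 (SE 0.158, adjusted p = 5.64e-04, limma). IGF1R, the IGF1 receptor itself, read 11.55 and 11.40 in untreated and 9.41 and 10.60 in treated LP-1-cIAP2-eGFP cells at 24 h. In control cells it read 11.83 and 11.29 untreated and 11.33 and 10.99 treated, which overlapped. The change over both lines was -0.94 (SE 0.233, adjusted p = 0.0108), and -0.64 without the dim array, which held the lowest value (adjusted p = 0.00690). IGF2R rose by 0.33 (SE 0.110, adjusted p = 0.0405), a change that kept its call in 2 of 16 refits without one array.

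The adaptors moved in opposite directions. IRS2 rose in both lines, from 8.78 and 8.79 to 9.94 and 10.67 in LP-1-cIAP2-eGFP cells and from 9.43 and 8.99 to 10.73 and 10.59 in control cells. Every treated array was above every untreated one of its line. The rise was 1.49 (SE 0.167, adjusted p = 8.56e-05, limma), or 2.80-fold, and 1.52 and 1.46 in the 2 lines. IRS1 changed by -0.71 over both lines (SE 0.241, adjusted p = 0.0454), by -1.28 in LP-1-cIAP2-eGFP and -0.14 in control cells. The call over both lines was kept in 3 of 16 refits without one array. Without the dim array the change was -0.45 (adjusted p = 0.106), and its second probe gave -0.44 (adjusted p = 0.624). At 6 h IRS1 was 6.75 and 7.47 in treated against 7.69 and 8.16 in untreated LP-1-cIAP2-eGFP cells, and 7.48 and 7.58 against 8.27 and 8.35 in control cells. Control cells treated for 24 h, at 8.37 and 8.01, overlapped with untreated ones, at 8.24 and 8.41.

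IGFBP7 fell in both lines. Untreated cells at 24 h read 15.00 and 15.24 in LP-1-cIAP2-eGFP and 14.25 and 14.87 in control cells. Treated cells read 11.05 and 11.68, and 10.98 and 11.38. Treated and untreated arrays did not overlap in either line. IGFBP7 fell by 3.57 on the log2 scale (SE 0.206, adjusted p = 1.64e-06, limma), or 11.9-fold, with changes of -3.75 in LP-1-cIAP2-eGFP and -3.38 in control cells. At 6 h the change was -0.16 (adjusted p = 0.847).

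IGFBP4, which binds both ligands and is cut by the protease PAPPA, was close to background after treatment. Control cells at 24 h read 6.16 and 6.91 untreated and 3.85 and 4.67 treated, the lower of them not well above background. The change in control cells was -2.27 (adjusted p = 0.0146, limma). LP-1-cIAP2-eGFP cells read 6.66 and 6.23 untreated and 4.52 and 2.69 treated, with neither treated array well above background. There the signal was at least 1.27-fold lower, when each treated array was set to its lowest signal well above background or to the probe's own, whichever was higher. The adjusted p of 0.00369 (limma) belongs to the change of -2.84 fitted to the values as measured. The change fitted over both lines was -2.56 (adjusted p = 5.72e-04). It holds the values below background as measured, so that its size is not established, and with normexp background correction it was -0.89 (adjusted p = 2.04e-04).

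IGFBP6 rose in control cells, from 7.82 and 8.31 to 9.46 and 9.61, by 1.47 (SE 0.454, adjusted p = 0.0461, limma). LP-1-cIAP2-eGFP cells read 6.54 and 6.59 untreated and 5.83 and 7.61 treated, the lower of these on the dim array, where the probe was not well above background. The change over both lines was 0.81 (adjusted p = 0.0784), and 1.28 without the dim array (adjusted p = 2.67e-04). IGFBP2 changed by -0.28 (adjusted p = 0.75, limma), and by -1.05 without the dim array, on which it read 8.02.

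Leaving out the dim array, 7 of 10 members were called at 24 h (39.3% of all probes), with IGFBP6 gained and IRS1 lost. The changes were then -3.42 for IGFBP7, -3.12 for IGFBP4, -0.91 for INSR and 1.69 for IRS2. With slide fitted as a block IGFBP7 (-3.51), IGFBP4 (-2.43), INSR (-1.01), IGF1R (-1.0) and IRS2 (1.49) were called, whereas IRS1 (-0.69) and IGF2R (0.31) were not (adjusted p = 0.114 for both, limma). Within slide 1, where 0 probes were called by limma, and slide 2 the changes were -3.69 and -3.19 for IGFBP7, -3.21 and -1.89 for IGFBP4, -1.33 and -0.71 for INSR, -1.35 and -0.55 for IGF1R and 1.49 and 1.40 for IRS2.

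In LP-1-cIAP2-eGFP cells alone 6 of 10 members were called at 24 h (28.6% of all probes), IRS2 higher and IGF1R, INSR, IRS1, IGFBP4 and IGFBP7 lower. Without the dim array, which leaves 1 treated array, 6 of 10 were called (26.7% of all probes). IRS1 was lost (-0.77, adjusted p = 0.104), IGFBP6 was gained (1.07, adjusted p = 0.0131) and IGF1R was -0.88 in place of -1.47. In control cells 5 of 10 were called (21.0% of all probes), IRS2 and IGFBP6 higher and INSR, IGFBP4 and IGFBP7 lower, to which the refit without the dim array added IGF2R with 0.44 (31.5%). The difference between the 2 responses passed the test in 0 of 10 members, 3 of which had an unadjusted p under 0.05 (limma), as 8.1% of all probes did. These were IGF1 with 0.62, IGF1R with -1.07 and IRS1 with -1.14, and 0.0712% of all probes were called at an adjusted p under 0.05. Without the dim array 0 of 10 were called, and IGF1 gave 0.82, IGF1R -0.48 and IRS1 -0.63. With the dim array as the only one of its condition 5 were called, IGFBP6, IGF1R, IRS1, INSR and IGFBP2, where 27.7% of all probes were called. The responses of IRS2 differed by 0.06, with a 95% confidence interval of -0.69 to 0.81.

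**Figure D3:**
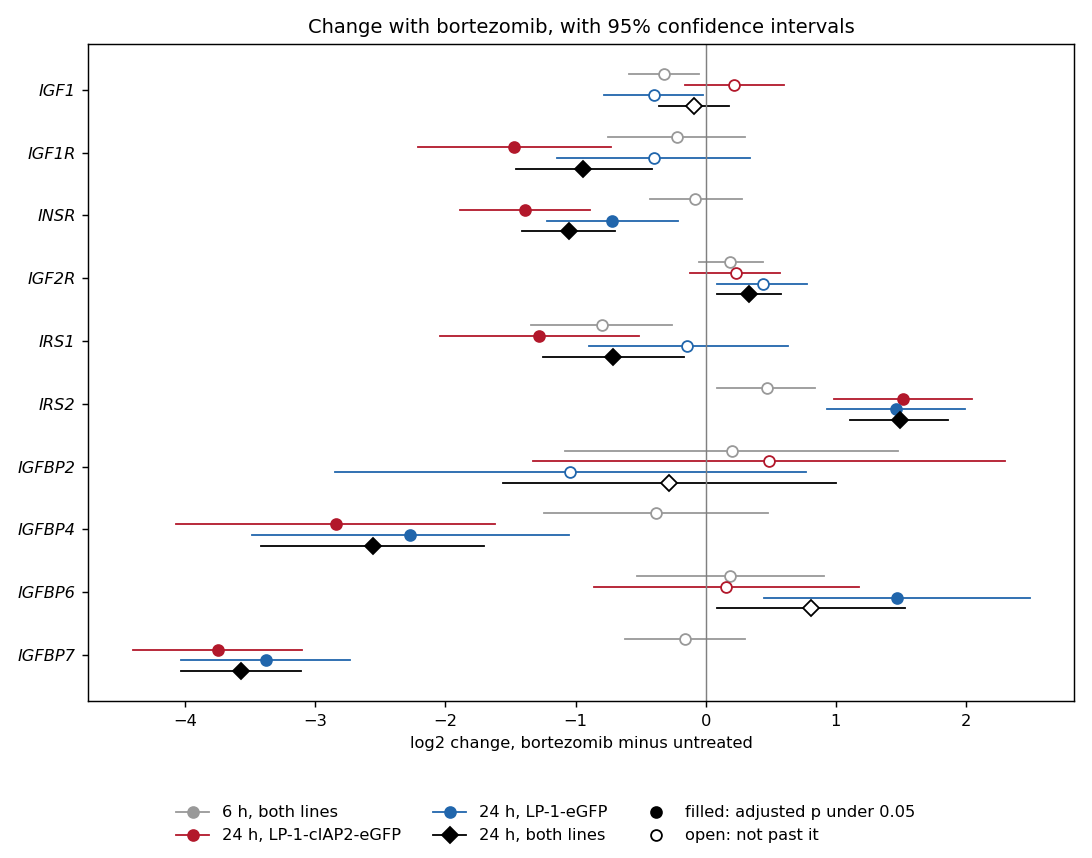
Log2 change with bortezomib (x axis) of each gene at 6 h over both lines, at 24 h in each line and at 24 h over both, with 95% confidence intervals from limma. Filled symbols passed an adjusted p of 0.05. IGFBP7 lies furthest left at 24 h and IRS2, at 1.49 over both lines, furthest right of the filled symbols over both lines, and no 6 h symbol is filled. The IGFBP4 values at 24 h include arrays not well above background.

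The stretches before the starts of IRS2 (chr13:109786584-109786833, minus strand) and IGFBP4 (chr17:40443200-40443449, plus strand), which moved in opposite directions at 24 h, are shown in the same way from RefSeq (GRCh38.p14).
IRS2: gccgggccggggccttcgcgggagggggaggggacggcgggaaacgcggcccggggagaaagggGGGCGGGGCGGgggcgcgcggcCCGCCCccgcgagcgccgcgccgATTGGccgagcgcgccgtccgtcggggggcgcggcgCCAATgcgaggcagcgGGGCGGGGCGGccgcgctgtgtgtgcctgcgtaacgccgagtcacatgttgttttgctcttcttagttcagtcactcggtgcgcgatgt
IGFBP4: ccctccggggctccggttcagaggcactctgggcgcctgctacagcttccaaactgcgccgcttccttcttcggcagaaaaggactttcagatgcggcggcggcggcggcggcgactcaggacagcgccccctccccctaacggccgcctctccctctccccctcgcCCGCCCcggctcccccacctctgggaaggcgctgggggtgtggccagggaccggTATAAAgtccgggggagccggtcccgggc
IRS2 held 5 GC boxes, 2 pairs of which shared bases, and 2 CCAAT boxes (32.0% of windows). IGFBP4 held 1 GC box and TATAAA from -29 to -24, a run that 10.8% of windows held. In neither window was the FOXO, AP-1, heat shock, CEBP-ATF or NF-kB motif found. The share of G and C was 76.4% and 71.6%, against a median of 58.0% over all windows.

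At 6 h of bortezomib 0 of 10 members were called by limma over both lines, against 5.93% of all probes, and 3 had an unadjusted p under 0.05, as 17.3% of all probes did. These were IRS1 with -0.80 (adjusted p = 0.0976), IRS2 with 0.47 (adjusted p = 0.169) and IGF1 with -0.32 (adjusted p = 0.191). In each of them, but also in IGF1R and IGF2R, the treated arrays lay on the same side of the untreated arrays in both lines. When the dim array was left out IRS1 and IRS2 passed the test, with -0.81 (adjusted p = 0.0188) and 0.47 (adjusted p = 0.0272), where 13% of all probes were called. Untreated cells did not differ between 24 h and 6 h in a way that passed the test in any member, 0 of 10 being called by limma (0.00890% of all probes). IGFBP7, with 0.76, was the 1 member at an unadjusted p under 0.05 (4.84% of all probes).

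The wider pathway was described by lists of genes around these members, whose largest called changes are named. Their counts stand against all probes, of which 6.25% were called higher and 9.84% lower between the lines, and 15.1% higher and 19.7% lower at 24 h of bortezomib. Without the dim array 23.2% and 39.3% were called in the 2 comparisons. Of the 9 other ligands, receptors and binding proteins 6 were tested, and IGFBP1, IGFBP5 and INSRR were not tested. IGFALS, the acid-labile subunit that stabilises circulating IGF complexes, differed by -0.84 between the lines (adjusted p = 0.0406), a call lost without the dim array (adjusted p = 0.0586). It was well above background on 4 of 8 LP-1-cIAP2-eGFP arrays, so this size rests in part on signals at background. IGFLR1 changed by -0.70 with bortezomib at 24 h (adjusted p = 3.40e-04). IGF2 was well above background on 8 of 16 arrays and differed by 0.61 between the lines (adjusted p = 0.298). IGFBP3, the main carrier of IGFs in serum, was measured on all 16 arrays and differed by 0.21 (adjusted p = 0.471). Of 8 proteases of the binding proteins and their inhibitors 5 were tested, and cathepsin D (CTSD) differed by -0.27 between the lines (adjusted p = 0.0212) and rose by 2.21 at 24 h of bortezomib (adjusted p = 4.76e-07).

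Between the lines, 8 of 22 adaptors and negative regulators tested were called, 4 in each direction. SOCS3 and SOCS1, suppressors of cytokine signalling that also act on the insulin receptor and IRS proteins, differed by -3.51 (adjusted p = 9.94e-04) and -1.26 (adjusted p = 7.35e-04, limma). SOCS3 was well above background on 2 of 8 LP-1-cIAP2-eGFP arrays and on all 8 control arrays, so the size of its difference rests on signals at background. The docking protein GAB2 differed by -0.77, and SH2B3 by 0.76, GRB14, which inhibits the insulin receptor, by 0.72 and caveolin-1 (CAV1) by 0.44. In untreated cells alone CAV1 differed by 0.04 (adjusted p = 0.937, limma), while GAB2, SH2B3 and GRB14 were called there, with -0.88, 1.15 and 0.81. With bortezomib at 24 h 6 of the 22 rose and 3 fell. DOK1 rose by 2.32 and SOCS1 by 1.89. The SOCS3 change of 2.17 was 4.10 in LP-1-cIAP2-eGFP cells, from untreated signals not well above background, and 0.24 in control cells (adjusted p = 0.922), and its call over both lines was lost without the dim array (adjusted p = 0.0639). The changes of GRB14, CAV1 and SOCS2 were -3.09, -1.38 and -0.87, that of SOCS2 in control cells alone being -0.53 (adjusted p = 0.132). CAV1 changed by -0.57 in LP-1-cIAP2-eGFP cells, a call lost with the dim array left out (-0.52, adjusted p = 0.118), and by -2.19 in control cells, and its second probe gave -0.56 over both lines. The median of the list was 0.01 between the lines and 0.11 at 24 h, against -0.02 and -0.09 over all probes.

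In the PI3K, AKT and mTOR arm 1 of 33 genes tested was higher and 6 were lower in LP-1-cIAP2-eGFP cells, 7 in all against 16.1% of all probes. The higher one was PIK3R3, a regulatory subunit of PI3K, with 0.93 (adjusted p = 0.00133). The catalytic subunit PIK3CD differed by -1.31 and its second probe by -0.40, and the PI3K inhibitor PIK3IP1 by -1.01. With bortezomib at 24 h 12 of the 33 rose and 5 fell, with a list median of 0.21. PIK3R3 rose by 2.48, TRIB3, which binds AKT, by 2.16 and DDIT4 (REDD1), an inhibitor of mTORC1, by 1.76. The DDIT4 change was 2.66 in LP-1-cIAP2-eGFP cells and 0.86 in control cells (adjusted p = 0.381). DEPTOR, an inhibitor of mTOR that is highly expressed in some myelomas, changed by -1.78, and the phosphatase PHLPP1 by -1.07, a call lost without the dim array (-0.82, adjusted p = 0.0579). With the dim array left out 3 were higher and 6 lower between the lines, and 17 rose and 6 fell at 24 h.

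In the RAS and MAPK arm 6 of 21 genes were called between the lines, 4 of them higher in LP-1-cIAP2-eGFP cells. The ERK phosphatase DUSP6 differed by -2.37 (adjusted p = 1.50e-04) and the feedback inhibitor SPRY1 by -0.57, while SPRY2 differed by 0.78 and NF1 by 0.38. With the dim array left out 5 were higher and 4 lower. In untreated cells alone, with all arrays, 0 of 21 were higher and 1 was lower, DUSP6 (7.75% of all probes). SPRY2 (0.41), SPRY1 (-0.52) and NF1 (0.43) were not called there (adjusted p = 0.0813, 0.149 and 0.153, limma). DUSP6 was well above background on 4 of 8 and DUSP5 on 5 of 8 LP-1-cIAP2-eGFP arrays, so their sizes rest in part on signals at background. Of 5 NF1 probes tested, the other 4 gave -0.68 to 0.12 and were not called. With bortezomib at 24 h 5 of 21 rose and 7 fell. DUSP5 and BRAF rose by 2.07 and 0.87, and SPRY1, ELK1 and HRAS changed by -2.87, -1.74 and -1.33. ELK1 was -1.09 without the dim array and -0.96 in control cells alone (adjusted p = 0.424), and its second probe gave -0.21 (adjusted p = 0.629).

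FOXO transcription factors are held out of the nucleus by AKT, and known FOXO target genes were therefore listed. Of 17 tested 1 was higher and 6 were lower in LP-1-cIAP2-eGFP cells. Catalase (CAT) differed by 0.34, FBXO32 by -1.44 and PIK3IP1 by -1.01. BCL6 differed by -1.88 but was well above background on 3 of 8 LP-1-cIAP2-eGFP arrays, so that this size and its later change rest on signals at background. Leaving out the dim array, 5 were higher and 6 lower. With bortezomib at 24 h 7 rose and 4 fell, and 9 and 6 without the dim array. GADD45A rose by 3.68 (12.8-fold), FBXO32 by 2.23 and BCL6 by 2.17, and TXNIP, INSR and CITED2 changed by -1.39, -1.05 and -0.71. In LP-1-cIAP2-eGFP cells alone TXNIP changed by -0.46 and CITED2 by -0.23, neither called, and the second CITED2 probe gave 0.03 over both lines (adjusted p = 0.918). INSR and IRS2 are also members of the axis, and PIK3IP1 and RICTOR also stand in the PI3K, AKT and mTOR list.

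**Figure D4:**
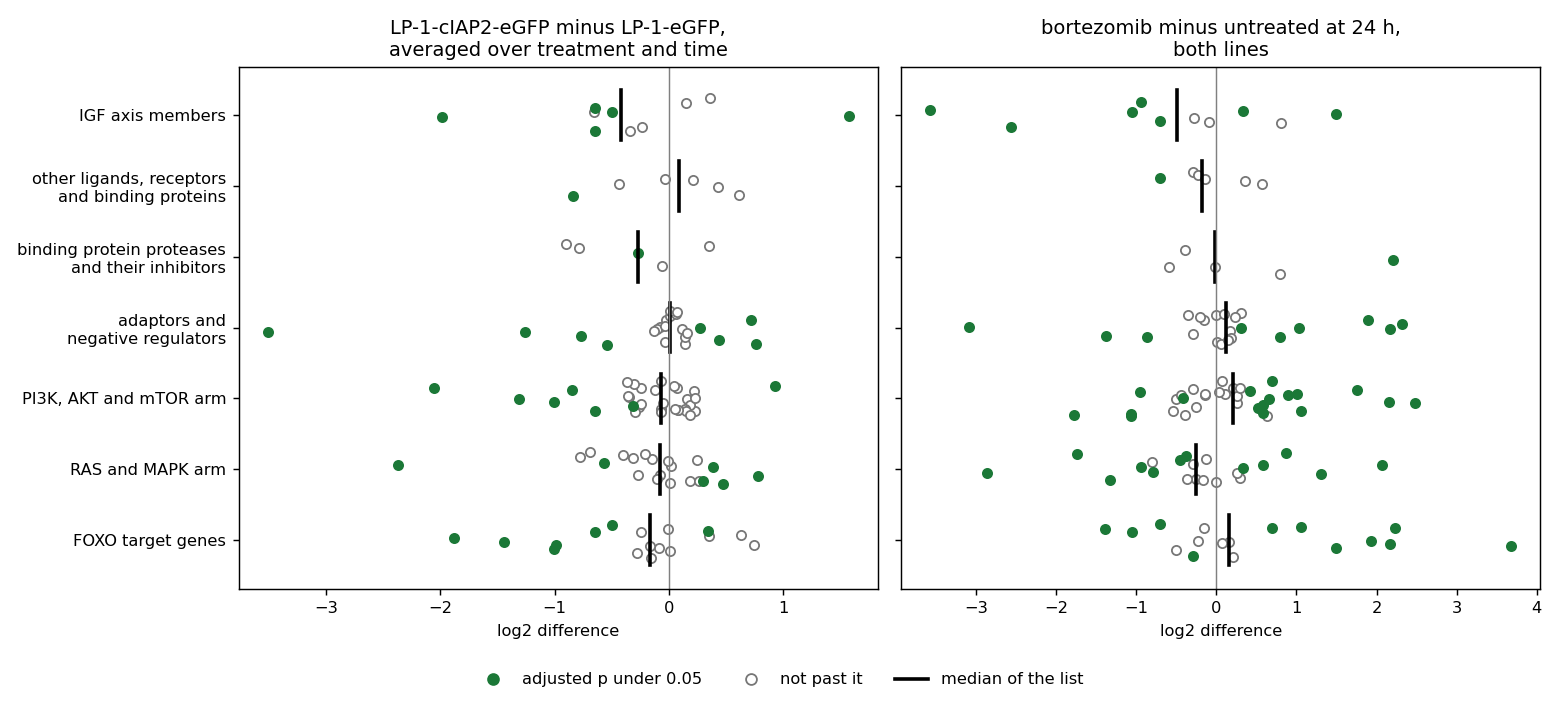
Log2 difference (x axis) of each tested gene of the 7 lists between the lines averaged over treatment and time (left) and with bortezomib at 24 h over both lines (right). Green points passed an adjusted p of 0.05 and black bars are list medians. In the IGF axis IGF1, at 1.57, stands alone on the right of the left panel, and the leftmost point of the adaptor list is SOCS3, which was at background on most LP-1-cIAP2-eGFP arrays.

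Markers of the plasma cell itself also moved with both comparisons. Of the 9 markers 3 were higher and 1 was lower in LP-1-cIAP2-eGFP cells. SDC1 differed by 1.42 (adjusted p = 5.10e-06, limma), MZB1 by 0.50, POU2AF1 by 0.34 and CD38 by -0.55. In untreated cells alone these differences were 1.62, 0.55, -0.02 and -0.43. Those of POU2AF1 and CD38 were not called there (adjusted p = 0.969 and 0.0867, limma). With bortezomib at 24 h 7 of the 9 fell, with changes of -2.46 for SDC1, -2.01 for MZB1 and -1.92 for CD38 and a list median of -1.46. Of markers of other cells, 2 of 6 for B cells, 2 of 7 for stromal cells and 3 of 6 for monocytes were tested. CD68 changed by 1.34, ITGAM by -1.65 and COL1A1 by -1.22 at 24 h, and ITGAM differed by -1.22 between the lines. Per line, CD68 and ITGAM were called in control cells and not in LP-1-cIAP2-eGFP cells, and COL1A1 in neither. ITGAM and COL1A1 were each well above background on 3 of 8 LP-1-cIAP2-eGFP arrays, none of them treated for 24 h, so these sizes rest on signals at background. The part of these markers in the changes of the IGF axis was not tested.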

How the data were processed

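The deposited scanner files hold Agilent intensity values that, per the file headers, were background-subtracted by Feature Extraction 10.7.3.1, and the authors also deposited log2 values quantile normalized in GeneSpring 12.6.1. The deposited log2 table was used as an alternative and for nothing else. From the background-corrected intensities, spots marked as outliers were left out, spots of one probe were averaged as log2 values, and arrays were quantile normalized (limma 3.58.1, R 4.3.3). A probe entered the test when both arrays of some condition read it well above background, which left 33725 probes. Of the gene probes, 28174 (55.7%) carried an accession with a symbol in the annotation table of GRCh38.p14. A gene is given by its tested probe of highest mean signal, so that 11 of the 12 member probes were tested and all 10 members had one.

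Each of the 8 conditions had its own mean in limma's lmFit, with contrasts.fit and eBayes, and 1.61 prior degrees of freedom. The thresholds that the methods give for the 3-way ANOVA were applied to the same fit, without the intersection with the moderated test that the study made. Named were all 10 members, up to 3 called rises and 3 called falls in each list for the line and the 24 h contrast, and the 5 genes with the highest and lowest correlation with IGF1. NF1 probes beyond the reported one, IGF2, IGFBP3 and markers not called or not tested were named after their values were seen. A few list genes that this rule names are not reported here. The members, lists, motifs and rules were chosen with earlier results of these data known. The model was tested on simulated data. Alternatives were the 3-way ANOVA that the methods name, other scalings, background corrections, filters, blocks, weights and call rules, each slide alone, and each array left out in turn. Leaving out the dim array in every contrast and list was added after seeing the data. In a refit without one array the lone array left in that condition was assumed to vary like the others.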

Additional observations from a re-analysis of the deposited data

How the results depend on the processing

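The calls of IGF1 and IGFBP6 between the lines, and those of INSR, IRS2, IGFBP4 and IGFBP7 with bortezomib at 24 h, were kept in each of 16 refits without one array, whereas those of IRS1 and IGF2R were not. The number of arrays, 2 a condition with 1 of them dim, limits the precision of every call.

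For the line difference, the number of members called was 5 and became 2 with probes above background on all 16 arrays (of 5 members testable there, IGF1 not among them; 32.9% of all probes), 3 with the slide as a block (9.21%), 2 with a 2-fold limit (4.35%), 2 under the 3-way ANOVA thresholds (2.37%), 2 with the lines as 2 groups of 8 arrays (6.45%), 0 within slide 1 (0.00935%) and 1 within slide 2 (3.92%), against 16.1% in the fit as reported. Without one array it was 4 to 7. For bortezomib at 24 h it was 7, and became 4 with a 2-fold limit (17.2% of all probes, against 34.9%), 0 within slide 1, where no probe was called, and 4 within slide 2 (17.8%), and 5 to 7 without one array. For 6 h it was 0, and became 1 with each array scaled to its 75th percentile (4.74% of all probes) and 3 with array weights (18.8% of all probes, against 5.93%), which are equal for both arrays of a condition and so do not set the dim array apart from its replicate, and 0 to 2 without one array. For the difference between the responses it was 0, and 0 to 5 without one array. Within a slide this difference could not be fitted. The cause of these changes was not tested, apart from the fewer probes, arrays or stricter limits that the alternatives themselves set. Scaling to the 75th percentile moved the median of all probes at 24 h from -0.09 to 0.13.

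Values that changed sign were all of uncalled results. Scaled to the 75th percentile, IGF1 was 0.07 at 24 h and the IGFBP4 response difference 0.68. With normexp the response differences of IGF2R and IRS2 were 0.29 and -0.43. Within slide 1, IGFBP2 was 0.40 between the lines and -0.27 at 6 h, IGF1R 0.08 and INSR 0.13 at 6 h and IGF1 0.21 at 24 h. Within slide 2, IGFBP7 was 0.03 at 6 h. Without one array, the line difference of IGFBP2 ranged from -0.63 to 0.13, its 24 h change from -1.05 to 0.46, and the response differences of IRS2 and IGFBP4 from -0.30 to 0.43 and from -1.53 to 0.33.

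Samples with the same replicate number deviated together weakly or not at all. Over 28 pairs of conditions the correlation of these deviations was -0.11 to 0.239, with a median of 0.0389, and 7 pairs were over 0.1. With the replicate number as a block, 6 members were called between the lines (18.2% of all probes), with IGFBP7 added (0.36, adjusted p = 0.0102), 8 at 24 h (37.2%), with IGFBP6 added (0.81, adjusted p = 0.0496), and 0 for 6 h and for the response difference (limma).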
